A study of Mus musculus with 2 samples.

Results

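Small RNA from mouse hippocampus was examined for 6 miRNA genes whose products are known to bypass Drosha or Dicer. They were the capped hairpins Mir320 and Mir484, the mirtrons Mir877, Mir1224 and Mir702, and Mir451a, which is cut by Ago2. They were chosen by gene name from the 2202 miRNA genes of the count tables. The rule used no level, but earlier results of these data were known when it was set. The 2 libraries form 1 group, made from total RNA below 30 bases in size per the labels. The tissue is labelled layer of hippocampus, from male mice aged 25 days of the B6CASTF1/J strain, a first-generation cross between C57BL/6J and CAST/EiJ. No treatment, altered genotype or control tissue was included. The labels give the replicates separate biosamples but a shared donor entry, so their spread may be partly technical.

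Most miRNAs start as a long transcript from which the nuclear enzyme Drosha cuts a hairpin, and the cytoplasmic enzyme Dicer then removes the hairpin's loop. A capped hairpin is made directly by transcription, with its 5′ end at the transcription start and a cap that marks it for export, and needs only Dicer. A mirtron is a short intron that folds into a hairpin after splicing, so that the spliceosome and the debranching enzyme stand in for Drosha. The Mir451a hairpin is released by Drosha but is too short for Dicer, and the Argonaute protein Ago2 cuts it instead. The counts are given per gene, so they show neither the arm of a hairpin nor the enzyme that made it, and the route of each gene is background and was not measured here.

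The hairpins are shown because the mirtrons fill introns and the mature Mir451a runs into its loop, a layout that Mir484 does not share. The 5 hairpins below were taken from the RefSeq annotation of GRCm38.p6, and Mir320 is named only. In the mirtrons the capitals mark intron bases at the splice sites, and in Mir484 and Mir451a they mark the mature miRNA.
Mir877 (chr17:35960730-35960814, minus strand): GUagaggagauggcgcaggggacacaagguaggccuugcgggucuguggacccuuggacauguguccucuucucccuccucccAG
Mir1224 (chr16:20604452-20604536, plus strand): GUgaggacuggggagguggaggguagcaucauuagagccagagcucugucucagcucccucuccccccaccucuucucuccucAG
Mir702 (chr5:136991433-136991541, plus strand): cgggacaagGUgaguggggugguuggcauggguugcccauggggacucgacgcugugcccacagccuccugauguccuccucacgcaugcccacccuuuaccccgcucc
Mir484 (chr16:14159626-14159692, plus strand): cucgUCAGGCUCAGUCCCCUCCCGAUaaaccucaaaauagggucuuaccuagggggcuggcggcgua
Mir451a (chr11:78073170-78073241, plus strand): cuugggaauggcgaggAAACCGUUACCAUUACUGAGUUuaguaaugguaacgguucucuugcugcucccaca

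The Mir877 and Mir1224 genes were each the whole of an intron of 85 bases, with no base to spare at either end. The Mir877 intron belongs to Abcf1, a gene with a role in translation initiation, and the Mir1224 intron to Vwa5b2. Mir702 lay in an intron of 102 bases of Plod3, which encodes a collagen-modifying enzyme, from 136991442 to 136991543. Its annotated hairpin began 9 bases before that intron and stopped 2 bases short of its end. In all 3 mirtrons the mature 5p sequence began at the first base of the intron. The 3p sequence ended on the last intron base for Mir1224, 1 base before it for Mir877 and 2 bases before it for Mir702.

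**Figure D1:**
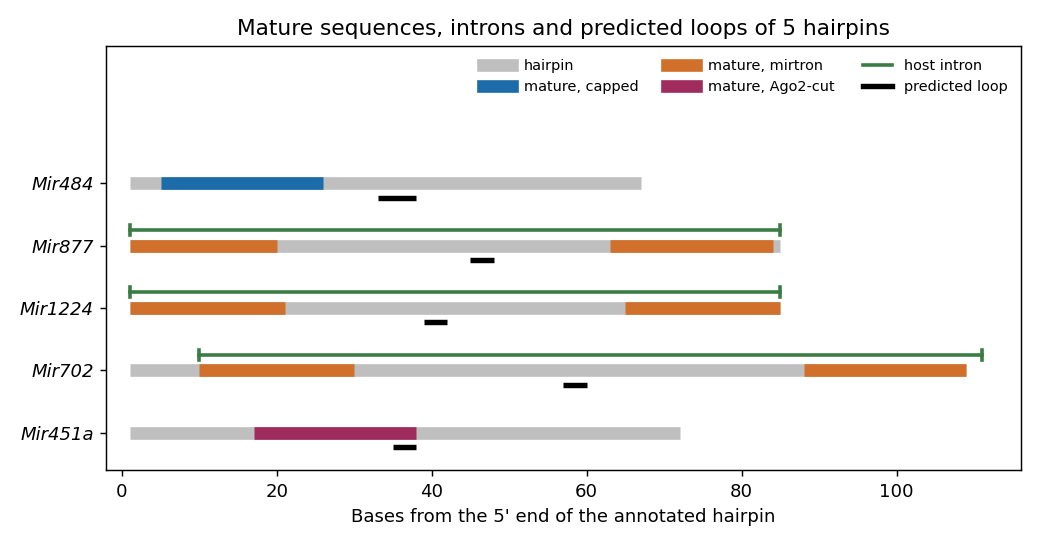
Annotated mature sequences (colour) in 5 hairpins (grey), drawn in bases from the hairpin's 5′ end, with the host intron above and the loop predicted by RNAfold below each. The introns of Mir877 and Mir1224 match the hairpins end to end, that of Mir702 is shifted by 9 bases at the 5′ side, and the mature sequence of Mir451a covers its predicted loop.

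The mature sequences are given with the seed, bases 2 to 8, in capitals, because the seed sets which targets a miRNA can pair with.
mmu-miR-484: uCAGGCUCaguccccucccgau
mmu-miR-877-5p: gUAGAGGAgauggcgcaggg
mmu-miR-877-3p: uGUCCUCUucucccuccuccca
mmu-miR-1224-5p: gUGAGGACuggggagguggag
mmu-miR-1224-3p: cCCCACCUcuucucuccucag
mmu-miR-702-5p: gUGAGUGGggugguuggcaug
mmu-miR-702-3p: uGCCCACCcuuuaccccgcucc
mmu-miR-451a: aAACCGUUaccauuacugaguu
No 2 of these 8 seeds were alike, and none was found in any other of the 968 genes of the tables that matched a RefSeq hairpin, which together hold 1580 mature sequences. The GC content of the Mir877, Mir1224 and Mir702 hairpins was 61.2%, 60.0% and 65.1%, against a median of 51.7% over the 968 hairpins. Mir451a had 47.2% and yet folded with a predicted free energy of -0.60 kcal/mol per base, and only 4.55% of hairpins were predicted to be more stable per base. Its mature sequence ran from base 17 to base 38 of the hairpin and took in the whole predicted loop, bases 35 to 38, above a stem of 17 unbroken pairs. A mature sequence that held a whole predicted loop was found for 11 of the 1580 (0.696%).

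Replicate 1 and replicate 2 held 5183641 and 5871233 sense-strand counts over all miRNA genes. Levels are given as counts per 1000000 of these (CPM). A count of 0 then allows up to 0.579 and 0.511 CPM, and intervals here are exact 95% Clopper-Pearson intervals that cover counting error only. Reads aligned to several places, 43.6% and 43.2% of all reads, are credited to no gene. Ranks, percentiles and medians of level leave these reads out. A gene that loses reads in this way can stand lower in them than its full level would place it, and other genes higher. Of 7 neuronal marker genes 5 were detected, and the 7 summed to 27767 and 30796 CPM. Nearly all of this came from Mir132, Mir128-1 and Mir138-1. Counts were low for Mir9-1 (71 and 68), Mir124a-1 (16 and 12), Mir124a-3 (2 and 9) and Mir124a-2 (0 and 1). How many reads of these 4 low genes aligned to several places was not tested. In bulk tissue fewer cells of a type and less RNA per cell cannot be told apart. A small RNA read covers a mature miRNA nearly end to end, so levels were not divided by gene length, which ran from 67 to 109 bases.

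All 6 genes were detected, that is, had at least 10 counts in both libraries, against a background of 20.2% (445 of 2202 genes). Among the genes that matched a RefSeq hairpin, 38.7% were detected. Together the 6 took 0.575% ± 0.0274 of gene-assigned counts (SD, n = 2), at 0.556% in replicate 1 (interval 0.550 to 0.563) and 0.595% in replicate 2 (0.589 to 0.601). The capped pair held 85.8% and 81.2% of these reads, the 3 mirtrons 13.9% and 18.4%, and Mir451a 0.312% and 0.441%. Their median mean level was 354 CPM, beside 51.2 CPM over the 445 detected genes.

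Mir320 (ENSMUSG00000065528.1) was the most abundant of the 6. Its product has been linked to the control of glycolytic genes. It had 14414 counts or 2781 CPM in replicate 1 (2736 to 2826) and 17924 counts or 3053 CPM in replicate 2 (3008 to 3098), a mean of 2917 ± 192 CPM (SD, n = 2). The SD was 6.60% of the mean, the smallest of the 6, and the gene ranked 53 among all miRNA genes. In mm10 the plus-strand hairpin spans bases 70443510 to 70443591 of chromosome 14. It stands 63 bases from the annotated start of Polr3d, a subunit gene of RNA polymerase III, which is transcribed away from it on the other strand. No gene other than Mir320 itself is annotated there, so it is intergenic in GENCODE M21.

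Mir484 (ENSMUSG00000070074.1) had 10317 counts or 1990 CPM in replicate 1 (1952 to 2029) and 10431 counts or 1777 CPM in replicate 2 (1743 to 1811). Its mean was 1883 ± 151 CPM (SD, n = 2), at rank 73. In mouse heart muscle its product has been reported to restrain the mitochondrial fission gene Fis1. Mir484 lies inside Marf1 but on the other strand, and its last 19 bases overlap an untranslated exon of a Marf1 transcript (14159674 to 14159862). The nearest transcript start on its own strand is that of Nde1, 3649 bases farther on. Among the 445 detected genes, the mean levels of Mir320 and Mir484 stood at percentiles 88.3 and 83.8, with reads aligned to several places left out.

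**Figure D2:**
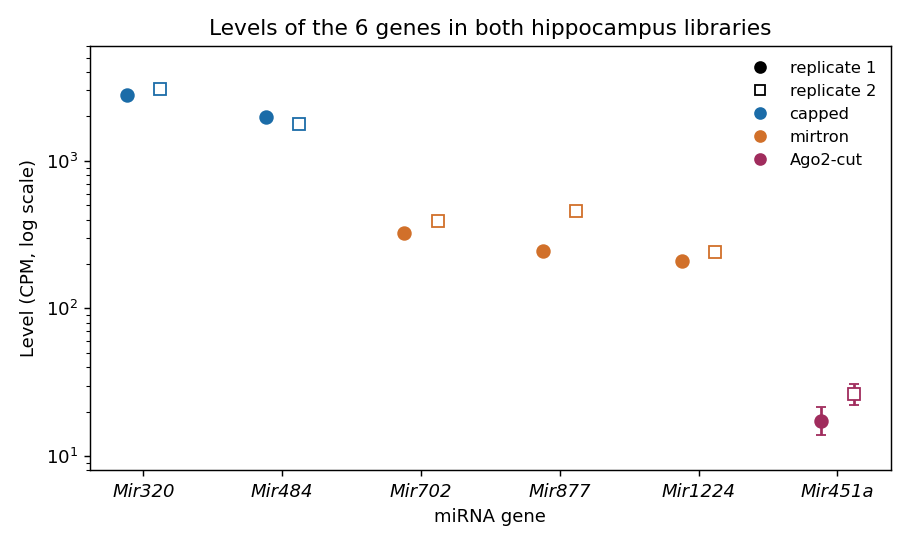
Level of each gene in CPM on a log scale in replicate 1 (filled circles) and replicate 2 (open squares), coloured by route, with exact 95% intervals that are narrower than most symbols. Mir320 and Mir484 lie between 1777 and 3053 CPM, the mirtrons between 208 and 460 CPM, and Mir451a at 17.4 and 26.2 CPM.

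The 3 mirtrons lay close to each other and below the capped pair in both libraries. Mir702 (ENSMUSG00000076240.1) had 1668 counts or 322 CPM (307 to 338) in replicate 1 and 2294 counts or 391 CPM (375 to 407) in replicate 2, a mean of 356 ± 48.7 CPM (SD, n = 2). Mir877 (ENSMUSG00000077931.1) had 1260 counts or 243 CPM (230 to 257) in replicate 1 and 2702 counts or 460 CPM (443 to 478) in replicate 2, a mean of 352 ± 154 CPM. Mir877 thus varied most of the 6, with an SD of 43.7% of its mean, and its values lay on both sides of those of Mir702. Mir1224 (ENSMUSG00000080669.1) had 1077 counts or 208 CPM (196 to 221) in replicate 1 and 1422 counts or 242 CPM (230 to 255) in replicate 2, a mean of 225 ± 24.3 CPM. The mirtrons ranked 145 (Mir702), 146 (Mir877) and 164 (Mir1224) of all genes.

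How typical the mirtrons' levels were was asked of all miRNA genes whose 2 ends lie within 10 bases of the ends of a same-strand intron. The annotation held 29 such genes, of which 22 matched their intron to the base. Of the 29, 14 were detected (48.3%), beside 20.2% of all genes, 9 had counts but too few, and 6 had none. Their introns were 67 to 137 bases long with a median of 85. Mir702, Mir877 and Mir1224 stood the third, the fourth and the sixth of the 29 by mean level, and took 33.2% and 37.1% of the counts of the list. Above them were Mir3102, the intron of Arhgef17, at 610 and 781 CPM, and Mir7080, the intron of Cpne7, at 419 and 545 CPM.

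Mir1981, in Marc2, had 348 and 345 CPM. By mean level it stood between Mir877 and Mir1224, but in replicate 1 it was above both Mir702 (322 CPM) and Mir877 (243 CPM). Mir6944, the intron of the dendritic spine gene Dbn1, had 121 and 99.8 CPM. The next were Mir3547 at 15.8 and 40.7 CPM and Mir1231 at 8.10 and 8.69 CPM. Gm24589, Mir7070, Mir1982, Mir6958 and Mir6970 were detected with means of 2.45 to 5.56 CPM. Levels within the list thus spread over a wide range, and the 3 named mirtrons were in its upper part. In the matched mature sequences of the list, 15 of 23 5p sequences began with GU, against 19 of 640 (2.97%) in other genes, and 12 of 21 3p sequences ended with AG, against 175 of 644 (27.2%). The list was chosen by intron position, so these bases follow in part from that choice.

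**Figure D3:**
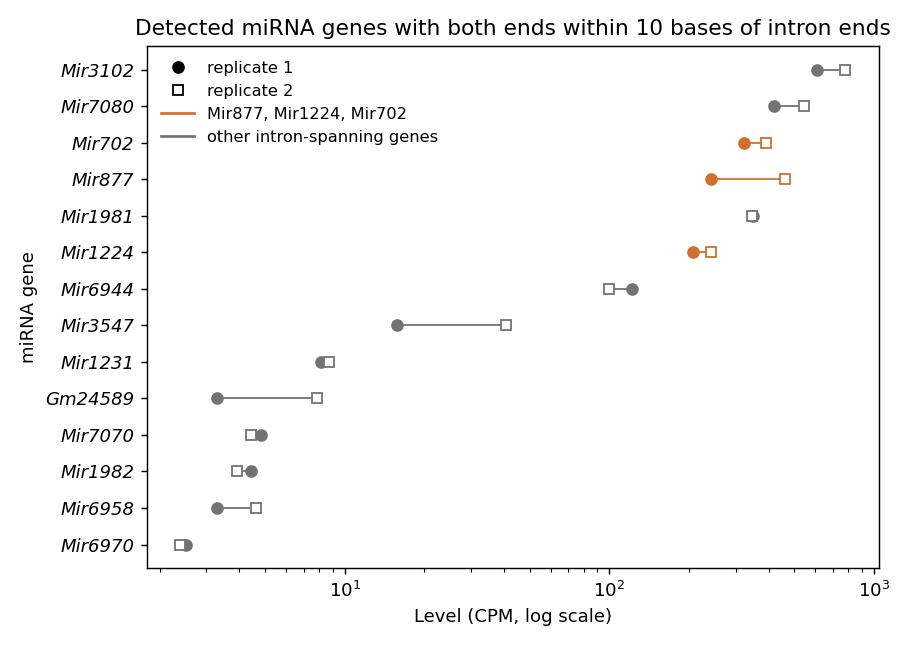
Levels in CPM on a log scale of the 14 detected genes with both ends within 10 bases of intron ends, in replicate 1 (filled circles) and replicate 2 (open squares). The mirtrons Mir702, Mir877 and Mir1224 (orange) lie between 208 and 460 CPM, below Mir3102 and Mir7080 and above most other genes of the list (grey).

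Mir451a (ENSMUSG00000070065.1), the erythroid miRNA that restrains the signalling adaptor gene Ywhaz in red cell precursors, was the lowest of the 6. It had 90 counts or 17.4 CPM (14.0 to 21.3) in replicate 1 and 154 counts or 26.2 CPM (22.3 to 30.7) in replicate 2, a mean of 21.8 ± 6.27 CPM (SD, n = 2), at rank 274. It is clustered with Mir144, an erythroid miRNA that follows the standard route, which ends 99 bases before it on the same strand. Mir144 had 21 and 44 counts, or 4.05 and 7.49 CPM. Within a library, where scaling cancels, Mir451a stood at 4.29 times Mir144 in replicate 1 (2.64 to 7.26) and at 3.50 times in replicate 2 (2.49 to 5.01). The red cell miRNA Mir486 had 20.4 and 23.2 CPM. The ratio of Mir451a to Mir486 was 0.849 (0.634 to 1.14) and 1.13 (0.893 to 1.44), so the assigned counts of neither library set these genes apart. Mir486 overlaps Mir3107 on the other strand. How many Mir486 reads aligned to several places, and so were left out of this ratio, was not tested. Of 4 red cell markers listed beforehand, 3 were found by name among the counted genes. All 3 were detected and summed to 41.9 CPM in replicate 1 and 56.9 CPM in replicate 2. No counted gene carries the name of the other, Mir486b. Mir3107, with 18 and 10 counts, is not part of this sum. The part of blood left in the tissue in the level of Mir451a was not tested.

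The strand column decided whether Mir451a was seen. Mir451b (ENSMUSG00000104813.1) is annotated over the same 72 bases on the minus strand, and its hairpin is the exact reverse complement. On its own strand Mir451b had 0 counts in both libraries, and on the other strand it had 90 and 154, the counts of Mir451a. In the column that ignores strand both genes had 0 counts in both libraries. The other 5 genes overlap no other miRNA gene, had 0 counts on the opposite strand, and had the same counts with and without regard to strand. The loss was not particular to Mir451a. Mir486, which overlaps Mir3107, had 106 and 136 counts on its strand and also 0 in the column that ignores strand.

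Ordered by mean level the genes ran Mir320, Mir484, Mir702, Mir877, Mir1224 and Mir451a. The ranges of neighbours over the 2 libraries did not overlap for 4 of the 5 pairs. They overlapped for Mir702 and Mir877, whose means lay 4.61 CPM apart. Mir702 stood at 1.32 times Mir877 in replicate 1 (1.23 to 1.43) but at 0.849 times in replicate 2 (0.803 to 0.898), so their order was turned. The gap between Mir877 and Mir1224 was also narrow, with 243 CPM as the lowest Mir877 value and 242 CPM as the highest Mir1224 value. Some ratios were steadier than the levels themselves. Mir702 had 1.55 times (1.43 to 1.67) and 1.61 times (1.51 to 1.72) the counts of Mir1224, and Mir320 had 13.4 times (12.6 to 14.3) and 12.6 times (11.9 to 13.3) those of Mir1224. The ratio of Mir320 to Mir484 was 1.40 (1.36 to 1.43) in replicate 1 and 1.72 (1.68 to 1.76) in replicate 2, and these intervals did not overlap.

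**Figure D4:**
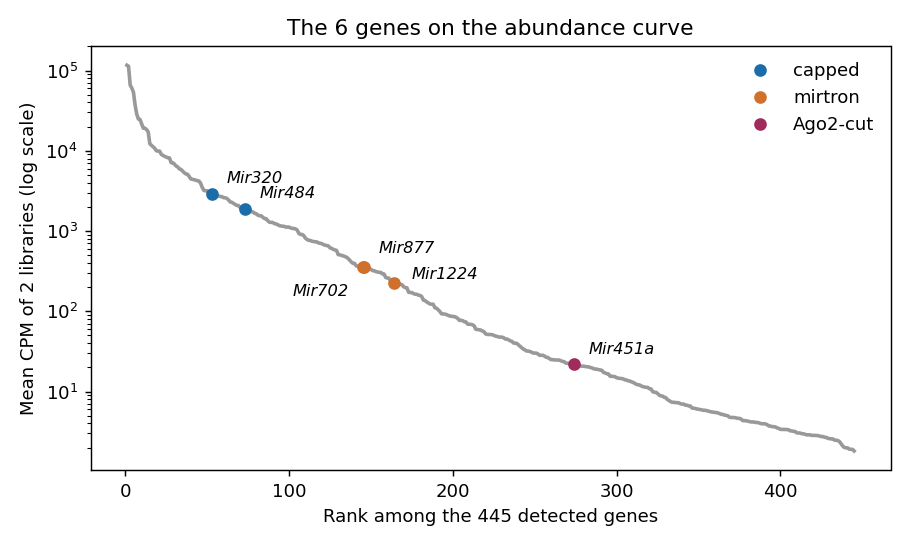
Mean CPM of 2 libraries on a log scale against rank for the 445 detected genes (grey line), with the 6 genes marked by route. Mir320 and Mir484 stand at ranks 53 and 73, Mir702, Mir877 and Mir1224 at 145, 146 and 164, and Mir451a at 274.

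The libraries were compared by an exact binomial test of the counts, 2-sided, with Benjamini-Hochberg adjustment over the 472 genes whose counts averaged 10 or more. This test covers read sampling only and leaves out the spread between samples. Of the 472 genes 59.7% passed at an adjusted p below 0.05, 39.4% lower in replicate 1 and 20.3% higher. That split rests on scaling to the gene-assigned total, since 29.9% were lower and 29% higher under TMM scaling, and 28% and 30.1% with DESeq2 size factors. All 6 genes passed, 5 lower and 1 higher in replicate 1, in a table where most genes passed. Mir877 differed most, at 0.528 times its replicate 2 level in replicate 1 (0.494 to 0.565), a log2 ratio of -0.92 (adjusted p = 3.78e-82, exact binomial test). That was larger in size than the ratio of 86.6% of the 291 genes whose counts averaged 100 or more. Mir451a had a log2 ratio of -0.57 (adjusted p = 0.00387), Mir702 of -0.28 (4.14e-09) and Mir1224 of -0.22 (0.000334), all by the exact binomial test. The capped pair went opposite ways and by little, with a log2 ratio of -0.13 for Mir320 (adjusted p = 2.32e-16) and 0.16 for Mir484 (1.06e-15), by the exact binomial test. The median log2 ratio of the 6 was -0.25, beside -0.17 over the 291 genes.

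The members' small differences depended on the scaling too. The TMM method of edgeR (trimmed mean of M-values) assumes that most genes do not differ, and it moved the log2 ratios up by 0.17, and DESeq2 size factors by 0.18. Mir320 then turned to 0.04 under TMM and 0.05 under DESeq2, and Mir1224 no longer passed under either (adjusted p = 0.502 and 0.622, exact binomial test). Mir702 and Mir451a passed under TMM but not under DESeq2 size factors (adjusted p = 0.0630 and 0.0566, exact binomial test). Of the 6 genes 3 were lower in replicate 1 and 2 higher under TMM, and 1 was lower and 2 were higher under DESeq2 size factors, beside the shares of all 472 genes given above. Mir877 was lower in replicate 1 under both, at log2 ratios of -0.75 and -0.74, and Mir484 was higher at 0.33 and 0.35.

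**Figure D5:**
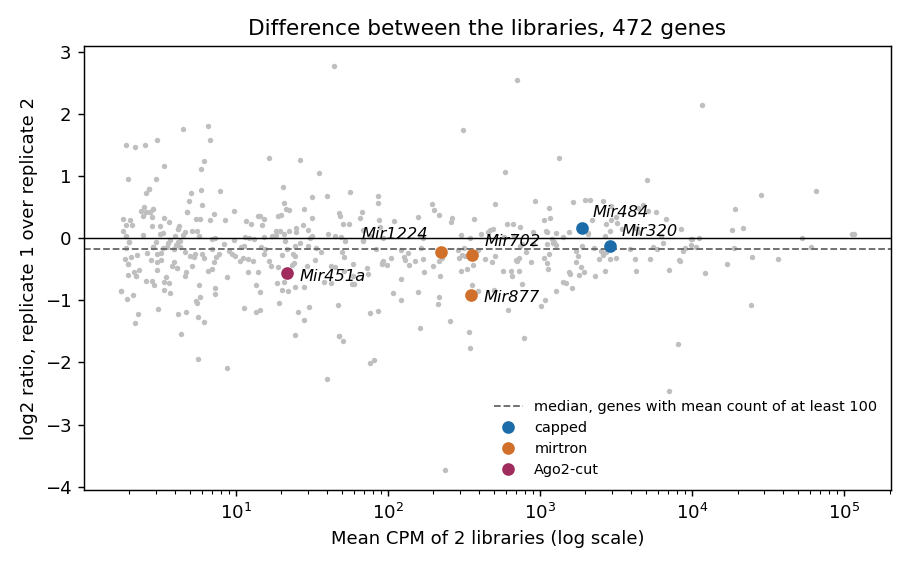
Log2 ratio of replicate 1 over replicate 2, with counts scaled to the gene-assigned total, against mean CPM on a log scale for the 472 genes tested (grey) and the 6 genes (coloured by route). Mir877 lies lowest of the 6 at -0.92, and Mir320, Mir1224 and Mir702 lie near the dashed line, the median of -0.17.

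Other miRNA genes with unusual precursors gave the following levels. Mir1839, reported to come from a small nucleolar RNA, had 916 and 1651 CPM. Mir1983, reported to come from a transfer RNA, had 1087 and 1772 CPM, and Mir664, related to a small nucleolar RNA, had 124 and 147 CPM. Reads at these genes may include fragments of the parent RNA, and their share was not tested. Mir1839 and Mir1983 lay between Mir484 and the mirtrons, and Mir664 between Mir1224 and Mir451a. Mir1839 was 1.80-fold (1.74 to 1.87) and Mir1983 1.63-fold (1.58 to 1.68) lower in replicate 1 than in replicate 2, while Mir877 was 1.89-fold (1.77 to 2.03) lower.

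The detected genes nearest to each gene in log2(CPM + 1) over the 2 libraries, by Euclidean distance, were Mir671 (0.140) and Mir409 (0.151) for Mir320, and Mir369 (0.208) and Mir181d (0.219) for Mir484. For Mir877 they were Mir15b (0.128) and Mir329 (0.257), and for Mir1224 Mir496a (0.0703) and Mir30c-2 (0.138). For Mir702 they were Mir421 (0.0397) and Mir29c (0.115), and for Mir451a Mir148a (0.0610) and Mir362 (0.0677). With 2 libraries of 1 tissue this likeness is one of level and not of a pattern across conditions.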

How the data were processed

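The authors deposited a table of raw counts per miRNA gene for each of 2 small RNA libraries. Build mm10 and annotation GENCODE M21 are named in the text file that came with each table. No source used here names the aligner, the counter or their versions. Of 3 deposited count columns, that on the strand of the gene was used. The 4 rows that name no gene (unmapped, several places, no feature, ambiguous) were left out of totals. They held 14.1% and 15.5% unmapped reads, 43.6% and 43.2% aligned to several places and 5.04% and 4.59% on no feature. All 2202 identifiers matched GENCODE M21 (GRCm38, the assembly of mm10), which gave symbols, introns and transcript starts.

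Counts were scaled to CPM, and 1 was added to each CPM before taking log2. A quasi-likelihood test needs a coefficient that 1 group does not give, so libraries were compared by an exact binomial test (scipy 1.17.1). The test was also run on simulated counts that held read sampling only. That run cannot show how the test behaves with the spread between samples that these libraries hold. edgeR 4.0.16 gave TMM scaling and a common biological coefficient of variation of 0.320, and DESeq2 1.42.0 gave size factors. Hairpins were folded with RNAfold 2.7.2. Genes named were the 6 members, partner genes, detected intron-spanning genes and the 2 nearest in level to each member. Members and lists were chosen with earlier results of these data known. Alternatives covered strand, scaling, count minimum, pseudocount, each library alone and the intron window, and a background of genes matched to RefSeq was added after seeing the data.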

Additional observations from a re-analysis of the deposited data

How the results depend on the processing

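With reads aligned to several places added to the total, mean levels were 1342 CPM for Mir320, 867 for Mir484, 164 for Mir702, 162 for Mir877, 104 for Mir1224 and 10.03 for Mir451a, and the share of the 6 was 0.265%, by construction of the larger total. In the column that ignores strand Mir451a had 0 CPM and no ratio, Mir320 had 3111 CPM and the share was 0.611%. Leaving out each library in turn kept 4 to 5 of the 5 neighbouring pairs in order, and gave 6 members and 462 to 491 genes detected.

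Mir320's log2 ratio turned to 0.0366 under TMM (adjusted p = 0.0418, exact binomial test) and 0.0481 under DESeq2 size factors (0.00598). Past the threshold no longer were Mir1224 at -0.0497 under TMM and -0.0382 under DESeq2 (adjusted p = 0.502 and 0.622), and, under DESeq2 alone, Mir702 at -0.10 (0.0630) and Mir451a at -0.39 (0.0566). The number of genes called was 242 to 284 over the alternatives, against 282, but its share of the genes tested was 83.2% of 291 with a minimum mean count of 100 and 35.5% of 801 with none, against 59.7%. With a minimum of 100 counts 268 genes and 5 members were detected, Mir451a being the member lost in replicate 1. An intron window of 20 bases gave 49 genes, 22 of them detected, and 5 bases gave 23 with 12 detected, Mir702 not among them. No paired analysis was possible because the libraries form 1 group.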
